A study of Mus musculus with 33 samples.

Results

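The B cell and plasma cell genes Cd79a, Cd79b, Ms4a1, Cd22, Blk, Spib, Tnfrsf17 and Prdm1 were followed through lungs of mice that lacked their own surfactant protein B (SP-B) gene. Some lungs received an adeno-associated virus (AAV) vector carrying human SP-B and the others, the controls, received no vector. These genes are 8 of the 773 panel genes measured in 33 lungs and were taken by name, with earlier results of these data known. In lungs dosed with vector a second time, 5 of the 8 rose after AAV-hSPB (23.3% of the 773 genes rose) and 6 of the 8 after AAV-hSPBTLR9i (11.0%) relative to lungs on continued doxycycline, and none of the 8 fell. After a single dose the 7 genes above background had higher means than in either group without vector, and the differences from on-doxycycline lungs did not pass the test in separate groups of 4 lungs. At 3 h after dosing no difference was detected.

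B cells recognise antigen through a membrane immunoglobulin whose signal is carried by the paired chains Cd79a and Cd79b. Around that receptor sit Ms4a1 (CD20), a surface protein of mature B cells, Cd22, a sialic-acid-binding receptor that dampens signalling, and Blk, a Src-family kinase. Spib is an ETS-family transcription factor of B cells and of plasmacytoid dendritic cells. B cells that become plasma cells lower much of this programme while Prdm1 (Blimp-1), a repressor that also works in T cells and other cells, and Tnfrsf17 (BCMA), a receptor for the survival factors BAFF and APRIL, come on. In lung, B cells are known to gather in lymphoid aggregates around airways and vessels after infection or other antigen exposure.

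All mice were CCSP-rtTAtg/(teto)7Sftpb/Sftpb-/- on FVB/N, so that doxycycline switches on an Sftpb transgene driven through the CCSP promoter of airway epithelium and its removal leaves the lung without that source of SP-B. At day 97 there were 6 groups of 4 right lungs (2 female and 2 male each). Without vector, the on-doxycycline lungs stayed on the drug and the off-doxycycline lungs had it removed on day 94. The single-dose groups received AAV-hSPB or AAV-hSPBTLR9i into the trachea on day 0, the repeat groups received the same vector again on day 90, and all 4 vector groups lost doxycycline on day 7. The labels do not spell out TLR9i. A second set held 3 groups of 3 lungs (2 female and 1 male each) given PBS or either vector and harvested 3 h later, and the doxycycline state of these mice is not given in the sources used here. The last dose lay 7 days back in repeat lungs and 97 days back in single-dose lungs, so dose number and time since dosing cannot be told apart. No lungs without vector lost doxycycline on day 7, and no day 97 group is labelled as given vehicle. Vector, dosing itself and long loss of doxycycline therefore cannot be told apart in comparisons with lungs without vector.

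RefSeq promoter windows on GRCm38.p6, which run from 250 bases before to 50 after the start site, were found for 5 of the 8 genes. They are shown because these genes are compared throughout as a group that moved in repeat-dosed lungs. Windows were searched on both strands for the octamer core TGCAAAT, the element bound by POU-family factors in many B cell promoters, and for GAAANNGAAA, a core of interferon response elements; the motifs do not overlap each other in these windows. The octamer core occurred in 4.02% of all 32851 windows of the same length and in those of Spib and Prdm1. The interferon response core occurred in 3.44% of all windows and in that of Tnfrsf17. Neither stretch of letters was found in the windows of Cd79a and Cd22. The 250 bases before the start site are given for 4 genes, 5′ to 3′ on the gene's own strand, with motif matches in capitals:
Cd79a (chr7:24897247-24897496, + strand): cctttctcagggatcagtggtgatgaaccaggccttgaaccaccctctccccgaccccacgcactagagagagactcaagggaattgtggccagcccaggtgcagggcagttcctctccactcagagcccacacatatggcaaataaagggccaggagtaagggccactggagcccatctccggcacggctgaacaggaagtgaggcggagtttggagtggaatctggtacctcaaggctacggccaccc
Spib (chr7:44532072-44532321, - strand): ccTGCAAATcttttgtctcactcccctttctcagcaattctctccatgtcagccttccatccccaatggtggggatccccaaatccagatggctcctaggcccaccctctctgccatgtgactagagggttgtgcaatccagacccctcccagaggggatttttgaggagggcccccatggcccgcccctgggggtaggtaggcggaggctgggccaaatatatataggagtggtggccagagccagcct
Prdm1 (chr10:44458749-44458998, - strand): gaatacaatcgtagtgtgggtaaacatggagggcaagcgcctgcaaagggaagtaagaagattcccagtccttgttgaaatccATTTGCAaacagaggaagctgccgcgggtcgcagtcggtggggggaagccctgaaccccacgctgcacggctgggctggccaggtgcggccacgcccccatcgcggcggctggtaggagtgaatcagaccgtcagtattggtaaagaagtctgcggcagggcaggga
Tnfrsf17 (chr16:11313559-11313808, + strand): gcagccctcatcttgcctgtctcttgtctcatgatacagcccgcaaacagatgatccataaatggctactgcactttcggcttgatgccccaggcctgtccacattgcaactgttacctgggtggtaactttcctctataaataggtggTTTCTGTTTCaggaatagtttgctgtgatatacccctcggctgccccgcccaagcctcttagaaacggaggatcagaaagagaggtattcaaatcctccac
In Spib the octamer core lay at bases -248 to -242 on the gene's strand and in Prdm1 at -167 to -161 on the opposite strand. In Tnfrsf17 the interferon response core lay at -101 to -92 on the opposite strand. These matches describe the letters only.

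RNA was counted with nCounter probes, a method that counts barcoded probe molecules without amplification. Levels below are log2 of counts that the authors scaled to reference genes, and a difference of 1 is a doubling. Panel counts totalled 597788 to 1131011 per day 97 lung and 1156612 to 1710291 per 3 h lung, and the background from the dimmest control probes was 12.3 to 32.7 counts at day 97. Totals were 851635 to 1131011 after repeat AAV-hSPBTLR9i, 597788 to 856619 after repeat AAV-hSPB, 676906 to 832041 on doxycycline and 671453 to 749782 off it. Background was 22.8 to 32.7, 12.3 to 26.0, 15.8 to 22.2 and 13.2 to 20.6 counts in the same order. Lungs without vector hold sample numbers 1 to 8 and repeat lungs 17 to 24, and the labels do not say which samples were measured together. The part of depth or sample order was not tested. Of 7 lung epithelial markers only Cdh1 was on the panel, and Sftpb was not analysed here. Cdh1 was at 11.60 to 11.93 in lungs without vector, 11.69 to 11.99 after a single dose, 11.48 to 11.88 after repeat AAV-hSPB and 11.44 to 11.58 after repeat AAV-hSPBTLR9i. AAV-hSPB repeat replicate 2 had the lowest total and correlated less well with its own group (r across genes 0.944 to 0.953) than the others did with each other (up to 0.982). Low values also occurred in lungs without vector. Off-doxycycline replicates 2 and 4 correlated at 0.932 with each other, though at up to 0.977 and 0.986 with another lung of their group. On-doxycycline replicate 1 held H2-Q10, a liver-enriched gene, at 11.09 against 3.28 to 4.97 in all other day 97 lungs. Counts that rest on these libraries are given with and without them. Leaving out both together was a check added after the data were seen. Apart from Tnfrsf17 the 8 genes were above background in all 24 day 97 lungs, with 33 counts (Blk) as the lowest value and 1198 (Cd79b) as the highest. The labels do not say that every lung came from a different mouse, and the tests see only the spread among the lungs as labelled.

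**Figure D1:**
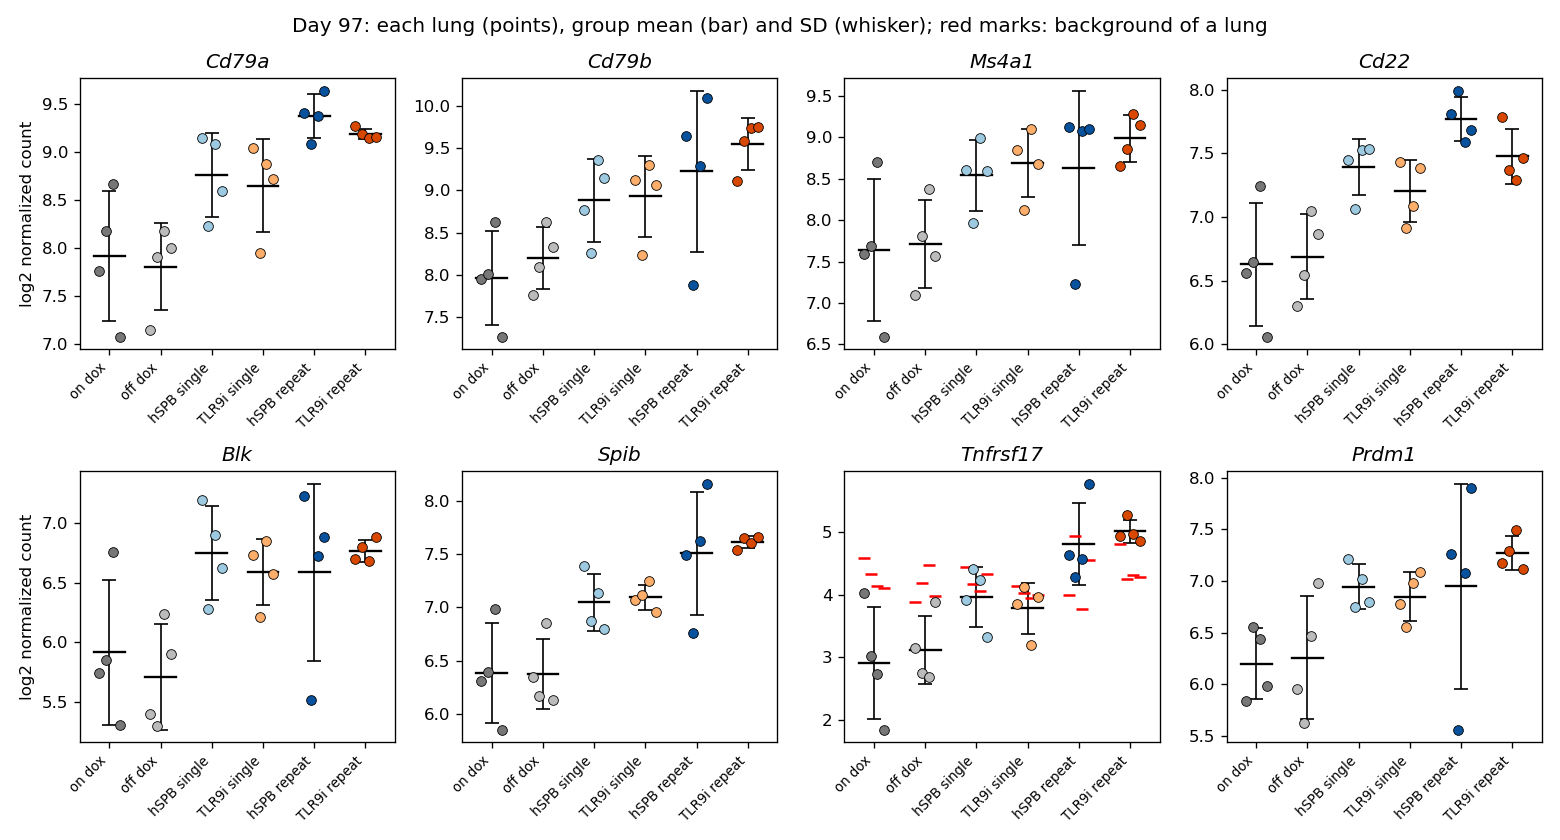
Log2 normalized count (y axis) of each of the 8 genes in the 6 day 97 groups (x axis), with 1 point per lung, a bar at the group mean and a whisker of 1 SD (n = 4). The means of both groups without vector are lowest in every panel, though Tnfrsf17 is below background there, and 1 AAV-hSPB repeat lung lies far below the other 3 for Ms4a1, Cd79b, Blk and Prdm1.

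Cd79a, the first signal chain of the B cell receptor, was at 7.76, 8.18, 8.67 and 7.08 in the on-doxycycline lungs and at 7.15, 7.91, 8.18 and 8.00 in the off-doxycycline lungs. Single-dose lungs were at 9.15, 8.23, 9.08 and 8.60 after AAV-hSPB and at 9.05, 7.96, 8.88 and 8.73 after AAV-hSPBTLR9i. Repeat lungs were at 9.41, 9.09, 9.38 and 9.64 after AAV-hSPB and at 9.27, 9.19, 9.15 and 9.16 after AAV-hSPBTLR9i. Every repeat lung was above every lung without vector, while single-dose lungs spread over the gap and into both ranges. The AAV-hSPB repeat mean exceeded the on-doxycycline mean 2.75-fold (log2 difference 1.46 ± 0.30 SE, limma adjusted p = 0.00123). After AAV-hSPBTLR9i the excess was 2.41-fold (1.27 ± 0.30, adjusted p = 0.00654). In whole lung, more cells of a type and more RNA per cell cannot be told apart.

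Cd79b, the partner chain, was at 7.95, 8.01, 8.62 and 7.27 on doxycycline and 7.76, 8.09, 8.62 and 8.33 off it. After 1 dose the lungs were at 8.76, 8.25, 9.36 and 9.14 (AAV-hSPB) and 9.12, 8.23, 9.30 and 9.06 (AAV-hSPBTLR9i). After 2 doses they were at 9.64, 7.88, 9.29 and 10.08 (AAV-hSPB) and 9.10, 9.59, 9.74 and 9.75 (AAV-hSPBTLR9i). All AAV-hSPBTLR9i repeat lungs exceeded all lungs without vector, whereas AAV-hSPB repeat replicate 2 lay inside their range and the other 3 above it. Relative to on-doxycycline lungs the gene rose 2.40-fold in the AAV-hSPB repeat group (1.26 ± 0.38, adjusted p = 0.0198) and 2.99-fold in the AAV-hSPBTLR9i repeat group (1.58 ± 0.38, adjusted p = 0.00775). The former call was lost when only the groups compared were fitted (adjusted p = 0.121) and without on-doxycycline replicate 4 (0.0806) or AAV-hSPB repeat replicate 1 (0.0548) or 4 (0.0805).

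Ms4a1, which encodes CD20, was at 7.59, 7.69, 8.70 and 6.59 on doxycycline and at 7.09, 7.80, 8.37 and 7.57 off doxycycline. Single-dose values were 8.61, 7.97, 9.00 and 8.59 with AAV-hSPB and 8.85, 8.12, 9.10 and 8.68 with AAV-hSPBTLR9i. Repeat values were 9.12, 7.23, 9.07 and 9.10 with AAV-hSPB and 8.66, 8.86, 9.28 and 9.15 with AAV-hSPBTLR9i. Apart from AAV-hSPB repeat replicate 2, which was as low as the doxycycline lungs, the repeat lungs were high, but on-doxycycline replicate 3 reached into their range. The AAV-hSPBTLR9i repeat group was 2.54-fold above on-doxycycline (1.35 ± 0.42, adjusted p = 0.0402), a call kept under 7 of 18 alternatives (adjusted p 0.00817 to 0.169). For the AAV-hSPB repeat group the difference was 0.99 ± 0.42 (adjusted p = 0.0866), and without replicate 2 it was 1.45 (adjusted p = 0.00697).

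Cd22, the inhibitory receptor gene, was at 6.56, 6.65, 7.24 and 6.06 on doxycycline and at 6.30, 6.54, 7.05 and 6.86 off doxycycline. Single-dose lungs held 7.44, 7.06, 7.53 and 7.53 (AAV-hSPB) and 7.43, 6.91, 7.09 and 7.38 (AAV-hSPBTLR9i). Repeat lungs held 7.81, 7.99, 7.59 and 7.68 (AAV-hSPB) and 7.78, 7.37, 7.29 and 7.46 (AAV-hSPBTLR9i). All 8 repeat lungs exceeded all 8 lungs without vector, and here AAV-hSPB repeat replicate 2 was the highest of its group. Cd22 rose 2.21-fold over on-doxycycline lungs after repeat AAV-hSPB (1.14 ± 0.21, adjusted p = 0.000473) and 1.80-fold after repeat AAV-hSPBTLR9i (0.85 ± 0.21, adjusted p = 0.00843). The latter call was lost when only the groups compared were fitted (adjusted p = 0.0582).

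Blk, the B cell Src-family kinase, was at 5.74, 5.85, 6.75 and 5.31 in the on-doxycycline lungs and 5.40, 5.30, 6.24 and 5.91 in the off-doxycycline lungs. With 1 dose it was at 7.20, 6.28, 6.90 and 6.63 (AAV-hSPB) and 6.73, 6.21, 6.85 and 6.58 (AAV-hSPBTLR9i). With 2 doses it was at 7.23, 5.52, 6.72 and 6.88 (AAV-hSPB) and 6.70, 6.80, 6.68 and 6.88 (AAV-hSPBTLR9i). Repeat and single-dose lungs overlapped, on-doxycycline replicate 3 reached their levels, and AAV-hSPB repeat replicate 2 was as low as the lungs without vector. Against on-doxycycline lungs Blk did not pass in either repeat group (0.67 ± 0.32, adjusted p = 0.128 and 0.85 ± 0.32, adjusted p = 0.0930). Without AAV-hSPB repeat replicate 2 the first difference was 1.03 (adjusted p = 0.0114). Without on-doxycycline replicate 3 both passed, at 0.95 (adjusted p = 0.0290) and 1.13 (adjusted p = 0.0206).

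Spib, the ETS-family factor, was at 6.31, 6.39, 6.99 and 5.85 on doxycycline and 6.34, 6.17, 6.85 and 6.13 off it. Single-dose lungs were at 7.39, 6.88, 7.13 and 6.80 (AAV-hSPB) and 7.07, 7.11, 7.25 and 6.96 (AAV-hSPBTLR9i). Repeat lungs were at 7.49, 6.76, 7.63 and 8.16 (AAV-hSPB) and 7.54, 7.66, 7.61 and 7.67 (AAV-hSPBTLR9i). The AAV-hSPBTLR9i repeat lungs lay close together and above every lung of the no-vector and single-dose groups. The rise over on-doxycycline lungs was 2.18-fold with AAV-hSPB (1.13 ± 0.24, adjusted p = 0.00198) and 2.35-fold with AAV-hSPBTLR9i (1.23 ± 0.24, adjusted p = 0.00208). For AAV-hSPB it was lost when only the groups compared were fitted (adjusted p = 0.0632).

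Tnfrsf17, the BCMA gene, was the dimmest of the 8, and no lung without vector had it above its own background. Its levels were 4.03, 3.02, 2.74 and 1.85 on doxycycline (14, 9, 6 and 4 counts) and 3.15, 2.75, 2.69 and 3.88 off doxycycline (8, 6, 6 and 13 counts). Single-dose lungs were at 3.91, 4.41, 4.23 and 3.32 (AAV-hSPB, 2 of 4 above background) and 3.85, 4.11, 3.19 and 3.97 (AAV-hSPBTLR9i, 1 of 4 above background). Repeat lungs were at 4.63, 4.28, 4.57 and 5.77 (AAV-hSPB, 19, 14, 25 and 60 counts, 3 of 4 above background) and 4.94, 5.26, 4.97 and 4.85 (AAV-hSPBTLR9i, 36, 56, 36 and 37 counts, all above background). In scaled level every repeat lung exceeded every lung without vector. AAV-hSPB repeat replicate 2 and on-doxycycline replicate 1 both had 14 counts, under their backgrounds of 21.9 and 20.6, so their order rests on scaling alone. With the dim group raised to its background, the AAV-hSPB repeat mean was 1.44-fold above on-doxycycline (fitted difference without raising 1.90 ± 0.39, adjusted p = 0.00121). That fold is no lower bound, since AAV-hSPB repeat replicate 2 was itself below background. The AAV-hSPBTLR9i repeat mean was at least 1.65-fold above the raised on-doxycycline group (fitted difference without raising 2.10 ± 0.39, adjusted p = 0.000969). For a single dose the fitted differences of 1.06 and 0.87 became 0.06 and -0.24 once low values of both groups were raised to background, so no direction is given.

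Prdm1, the plasma cell repressor, was at 5.84, 6.55, 6.44 and 5.98 on doxycycline and 5.96, 5.63, 6.47 and 6.98 off doxycycline. After a single dose it was at 7.22, 6.75, 7.02 and 6.80 (AAV-hSPB) and 6.78, 6.56, 6.98 and 7.09 (AAV-hSPBTLR9i). After a repeat dose it was at 7.27, 5.56, 7.08 and 7.90 (AAV-hSPB) and 7.18, 7.30, 7.49 and 7.12 (AAV-hSPBTLR9i). All AAV-hSPBTLR9i repeat lungs exceeded all single-dose lungs of that vector and all lungs without vector, while AAV-hSPB repeat replicate 2 was the lowest of the 24 lungs. Prdm1 missed the threshold against on-doxycycline in both repeat groups (0.75 ± 0.35, adjusted p = 0.116 with AAV-hSPB and 1.07 ± 0.35, adjusted p = 0.0503 with AAV-hSPBTLR9i). Under 7 of 18 alternatives the latter passed (adjusted p 0.0108 to 0.136 over all 18), and without AAV-hSPB repeat replicate 2 the former was 1.21 (adjusted p = 0.00238).

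**Figure D2:**
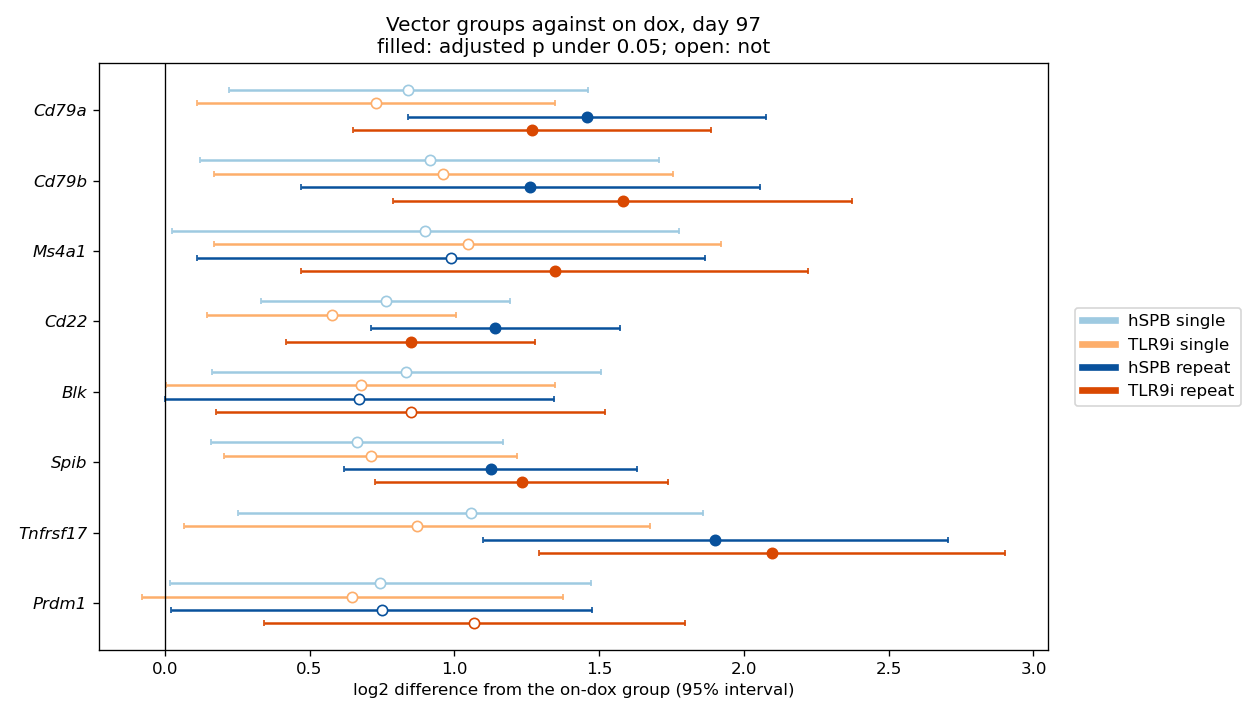
Log2 difference of each vector group from the on-doxycycline group (x axis) for the 8 genes (y axis), with points at the limma estimate and bars for the 95% interval (4 lungs per group). Filled points passed an adjusted p of 0.05; all 11 filled points are repeat groups, and all estimates lie above 0.

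Against the whole panel, 5 of 8 genes called higher after repeat AAV-hSPB (Cd79a, Cd79b, Cd22, Spib and Tnfrsf17) stood beside 23.3% of the 773 genes called higher in the same comparison. After repeat AAV-hSPBTLR9i, 6 of 8 (the same genes and Ms4a1) stood beside 11.0%. The median difference over the 8 genes was 1.13 and 1.25, against 0.15 and 0.11 over all genes. Groups did not overlap for 3 of the 8 genes with AAV-hSPB (18.2% of all genes had every repeat lung higher) and for 6 of the 8 with AAV-hSPBTLR9i (18.1%). The 3 included Tnfrsf17, for which a repeat lung and an on-doxycycline lung had equal counts under background. With scaling to the median gene instead of reference genes, the median of all genes shifted by -0.23 and -0.20 in these comparisons, and the 8 genes stayed positive in both. Without on-doxycycline replicate 1 the calls were 5 of 8 for each vector. The shares of all genes in these fits are not given here.

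The off-doxycycline lungs gave the second control. They had lost the transgene's inducer on day 94, whereas the vector groups had lost it on day 7. Repeat AAV-hSPB lungs were called higher for 5 of 8 genes (22.5% of all genes): Cd79a by 1.57 (adjusted p = 0.000773), Cd22 by 1.08 (0.000808), Spib by 1.14 (0.00195), Tnfrsf17 by a fitted 1.69 (0.00286) and Blk by 0.88 (0.0487). With the dim off-doxycycline group raised to its background, Tnfrsf17 was 1.60-fold higher, which is no lower bound because AAV-hSPB repeat replicate 2 was below background. The Blk call held under 7 of 18 alternatives, and Cd79b missed the threshold at 1.02 (adjusted p = 0.0512). Repeat AAV-hSPBTLR9i lungs were called higher for all 8 genes (14.5% of all genes). Among the genes above background this ran from 0.79 for Cd22 (adjusted p = 0.0148) to 1.38 for Cd79a (0.00482), with Prdm1 at 1.01 (0.0492). The fitted difference of Tnfrsf17 was 1.89 (0.00416), and with the off-doxycycline group raised to its background it was at least 1.84-fold higher. Here Cd79a, Spib and Tnfrsf17 kept their calls under every alternative run, and Prdm1 under 7 of 18, Ms4a1 under 8 of 18 and Blk under 9 of 18. The count of 8 was 3 without off-doxycycline replicate 1, 4 without off-doxycycline replicate 2 and 4 without any 1 of the 4 AAV-hSPBTLR9i repeat lungs. Calls over all genes, in either direction, fell too, from 137 with all lungs. They were 80 and 79 without those off-doxycycline lungs, and 86, 53, 99 and 76 without repeat replicates 1 to 4. Groups did not overlap for 3 of 8 genes with AAV-hSPB (15.3% of all genes) and for 8 of 8 with AAV-hSPBTLR9i (16.9%). The 3 included Tnfrsf17, which was below background in AAV-hSPB repeat replicate 2 and in every off-doxycycline lung. The repeat groups are shared by both controls' comparisons, so these are not independent results. After doxycycline had been removed for 3 days no difference was detected: the off-doxycycline minus on-doxycycline difference ran from -0.21 (Blk) to 0.24 (Cd79b), with adjusted p of 0.777 or more. By limma 0 of the 8 and 0.0% of all genes were called, 0 of the 8 and 96 of 773 genes had an unadjusted p under 0.05, and voom called 0 of the 8. The 95% intervals of that difference reached 1.03 (Cd79b) and -0.88 (Blk).

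AAV-hSPB repeat replicate 2 was high for some of the 8 genes and low for others. Relative to the on-doxycycline mean it was higher by 1.17 for Cd79a and 1.36 for Cd22. Its Tnfrsf17 signal, 14 counts, was below its background of 21.9. It was at 0.38 for Spib and -0.08 for Cd79b, and below that mean for Ms4a1 (-0.41), Blk (-0.40) and Prdm1 (-0.64). The other 3 lungs of its group were above the on-doxycycline mean for each of the 8 genes. Without it all 8 genes were called higher than in on-doxycycline lungs (22.8% of all genes) and all 8 higher than in off-doxycycline lungs (23.9%), Cd79b by 1.71 in the former. T cell marker genes summed to a log2 level of 10.96 in this lung, the lowest of its group, whose highest was 11.80. The part of library quality or tissue content in this lung's values was not tested.

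**Figure D3:**
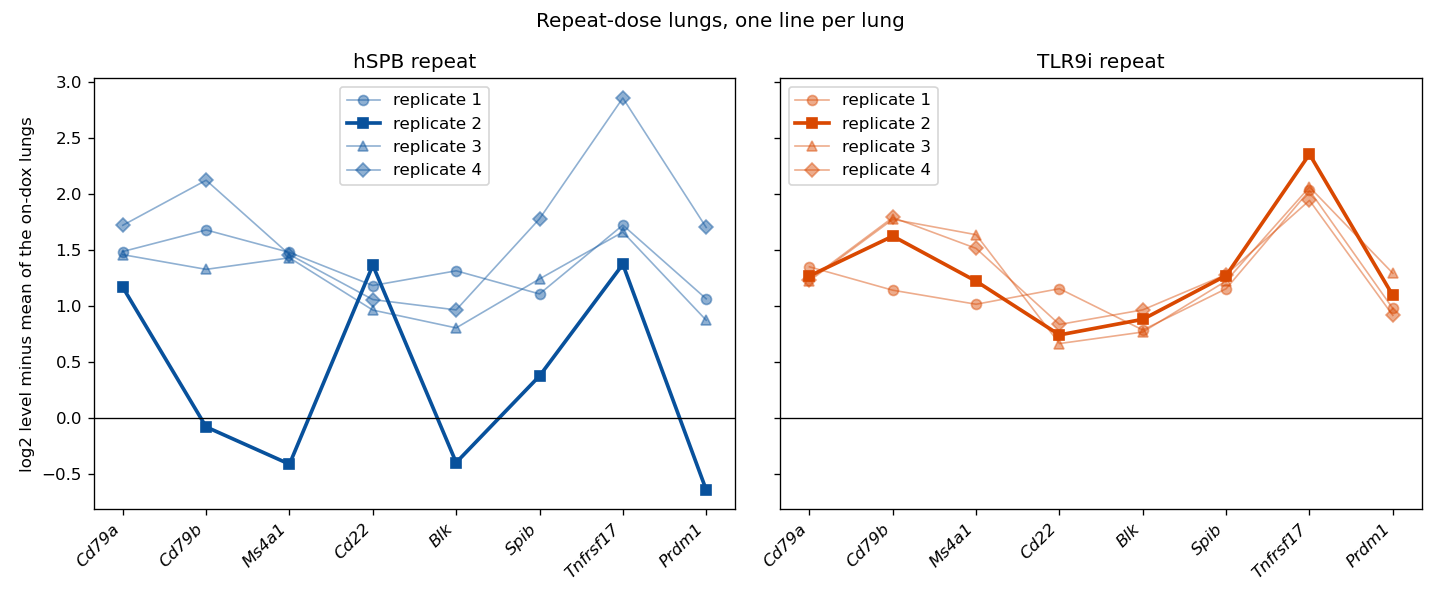
Log2 level minus the mean of the on-doxycycline lungs (y axis) for the 8 genes (x axis), with 1 line per repeat-dose lung in a panel for each vector. AAV-hSPB repeat replicate 2 is at 1.17 for Cd79a and 1.36 for Cd22 but falls to -0.41 for Ms4a1 and -0.64 for Prdm1, whereas the 4 AAV-hSPBTLR9i lungs run close together.

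A single dose 97 days earlier left means above both doxycycline groups for the 7 genes other than Tnfrsf17, whose levels were mostly below background. In AAV-hSPB single lungs the difference of these 7 from on-doxycycline ran from 0.66 (Spib) to 0.92 (Cd79b), and the median over the 8 was 0.84 against 0.09 over all genes. The adjusted p was 0.222 to 0.458, and 0 of 8 passed by limma or voom (0.0% of all genes), although 8 of 8 had an unadjusted p under 0.05 against 82 of 773 genes. In AAV-hSPBTLR9i single lungs it ran from 0.58 (Cd22) to 1.05 (Ms4a1), with adjusted p of 0.231 to 0.526. Again 0 of 8 passed by limma or voom (0.259% of all genes), with 7 of 8 at an unadjusted p under 0.05 against 83 of 773 genes. Cd22 passed without on-doxycycline replicate 3, at 0.97 (adjusted p = 0.0158) with AAV-hSPB and 0.78 (adjusted p = 0.0459) with AAV-hSPBTLR9i.

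Pooling the 8 single-dose lungs against the 8 lungs without vector, a comparison added after the data were seen, called 4 of 8 genes higher (2.59% of all genes): Cd79a by 0.84 ± 0.21 (adjusted p = 0.0371), Cd22 by 0.64 ± 0.15 (0.0369), Blk by 0.86 ± 0.23 (0.0442) and Spib by 0.69 ± 0.17 (0.0371). None of the 8 was free of overlap (0.517% of all genes were). The count was 0 without on-doxycycline replicate 1 or 4, off-doxycycline replicate 1 or 2, AAV-hSPB single replicate 3 or 4 or AAV-hSPBTLR9i single replicate 1 or 4. It was 1 without on-doxycycline replicate 2, AAV-hSPB single replicate 1 or AAV-hSPBTLR9i single replicate 3, and 2 without AAV-hSPBTLR9i single replicate 2. Calls over all genes, in either direction, fell too, from 21 with all lungs. They were 1 to 7 in the fits with a count of 0, 8 to 13 in those with 1 and 11 in that with 2. The pooled repeat lungs against the same lungs without vector, also added after the data were seen, called all 8 (27.8% of all genes). Differences ran from 0.86 for Blk to 1.42 for Cd79a among the genes above background, with adjusted p of 2.88e-05 to 0.00862 over the 8. Cd79a, Cd22 and Tnfrsf17 did not overlap there (6.6% of all genes), though for Tnfrsf17 a repeat lung and an on-doxycycline lung had equal counts under background. All 8 were called under every alternative run for that comparison.

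Within a vector, no difference between repeat and single-dose lungs was detected for the 8 genes. Repeat minus single AAV-hSPB differences ran from -0.16 (Blk) to 0.85 (Tnfrsf17), with adjusted p of 0.205 to 0.997. None of the 8 passed by limma or voom, 1 of the 8 and 168 of 773 genes had an unadjusted p under 0.05, and 7.24% of all genes were called. Repeat minus single AAV-hSPBTLR9i differences ran from 0.17 (Blk) to 1.23 (Tnfrsf17, adjusted p = 0.302). Again none passed by limma or voom, 2 of the 8 and 60 of 773 genes had an unadjusted p under 0.05, and 0.388% of all genes were called. With both vectors pooled, a comparison also added after the data were seen, Tnfrsf17 alone of the 8 was called, higher in repeat lungs (adjusted p = 0.0174, 8.67% of all genes called higher). It was above background in 3 of 8 single-dose and 7 of 8 repeat lungs, and its fitted difference of 1.04 was 0.79 with low values raised to background. Spib (0.49, adjusted p = 0.0815) and Cd79a (0.58, adjusted p = 0.0896) missed the threshold, and Blk differed by 0.01 (adjusted p = 0.996). Without AAV-hSPB repeat replicate 2, 3 of the 8 were called there, beside 10.7% of all genes called higher.

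Leaving out Tnfrsf17 for its low signal, group means put both groups without vector lowest for the other 7 genes. For Cd79a, Cd79b, Cd22, Spib and Prdm1 both single-dose groups came next and both repeat groups were highest, with Cd79a for example at 7.81 ± 0.45 off doxycycline, 7.92 ± 0.68 on doxycycline, 8.65 ± 0.48 and 8.77 ± 0.44 after a single dose of AAV-hSPBTLR9i and AAV-hSPB, and 9.19 ± 0.057 and 9.38 ± 0.23 after repeat doses of them (SD, n = 4). For Prdm1 the AAV-hSPB repeat and single-dose means were both 6.95. For Ms4a1 the AAV-hSPB repeat mean (8.63 ± 0.93) lay between the single-dose means (8.54 and 8.69), and for Blk it was below both, at 6.59 ± 0.74 against 6.75 ± 0.39 after a single dose of that vector. For these genes no call was made for on against off doxycycline or for each single-dose group against on doxycycline. Nor was any made for each repeat group against its single-dose group or for the vectors against each other. With both vectors pooled, single-dose lungs were called higher than lungs without vector for Cd79a, Cd22, Blk and Spib, as given above. Not every step between neighbours in these orders was tested.

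The vectors did not differ detectably for any of the 8 genes at the same dose number. After a single dose AAV-hSPBTLR9i minus AAV-hSPB ran from -0.19 (Cd22) to 0.15 (Ms4a1), with an adjusted p that rounds to 1.00 for each gene. After repeat doses it ran from -0.29 (Cd22, 95% interval -0.72 to 0.14) to 0.36 (Ms4a1, -0.52 to 1.23), with adjusted p of 0.850 to 0.961. Of the 8, 0 passed in either comparison by limma, 0 by voom and 0 had an unadjusted p under 0.05, and 0.0% of all genes passed in each (8 and 51 of 773 at an unadjusted p under 0.05). The interaction of dose number and vector ran from -0.10 to 0.42 (adjusted p = 0.995 for each gene). It called 0 of the 8 by limma and by voom and 0.0% of all genes, with 0 of the 8 and 24 of 773 genes at an unadjusted p under 0.05. The intervals still allow differences of about 1 log2 unit, up to 1.45 for the interaction in Ms4a1 when the dim Tnfrsf17 is left out.

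Lung by lung, 6 of the other 7 genes moved with Cd79a inside their groups. Across the 24 day 97 lungs, each taken as its deviation from its group mean, Cd79a correlated with Ms4a1 (Pearson r = 0.79, Spearman 0.69, permutation p adjusted over 7 relations 7e-05), Cd22 (0.77, 0.63, adjusted p = 7e-05), Blk (0.76, 0.80, adjusted p = 9.33e-05) and Cd79b (0.72, 0.64, adjusted p = 0.000157). Weaker values were found for Spib (0.62, 0.58, adjusted p = 0.0016) and Prdm1 (0.50, 0.64, adjusted p = 0.0163). For Tnfrsf17 r was 0.12 and Spearman's rho 0.06 (p = 0.571), but it was not above background in 14 of the 24 lungs, so its value says little. Without the lungs farthest in Cd79a, on-doxycycline replicate 4 and AAV-hSPBTLR9i single replicate 2, r was 0.73 for Ms4a1, 0.68 for Cd22, 0.73 for Blk, 0.64 for Cd79b, 0.61 for Spib, 0.50 for Prdm1 and -0.05 for Tnfrsf17. Among all 28 pairs the closest were Cd79b with Ms4a1 (0.93) and Ms4a1 with Blk (0.89). Leaving out AAV-hSPB repeat replicate 2 raised Cd22 with Cd79b from 0.38 to 0.69 and Cd22 with Prdm1 from 0.15 to 0.45. Genes of 1 lung share its RNA and its scaling, which was not separated from the genes' own variation.

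**Figure D4:**
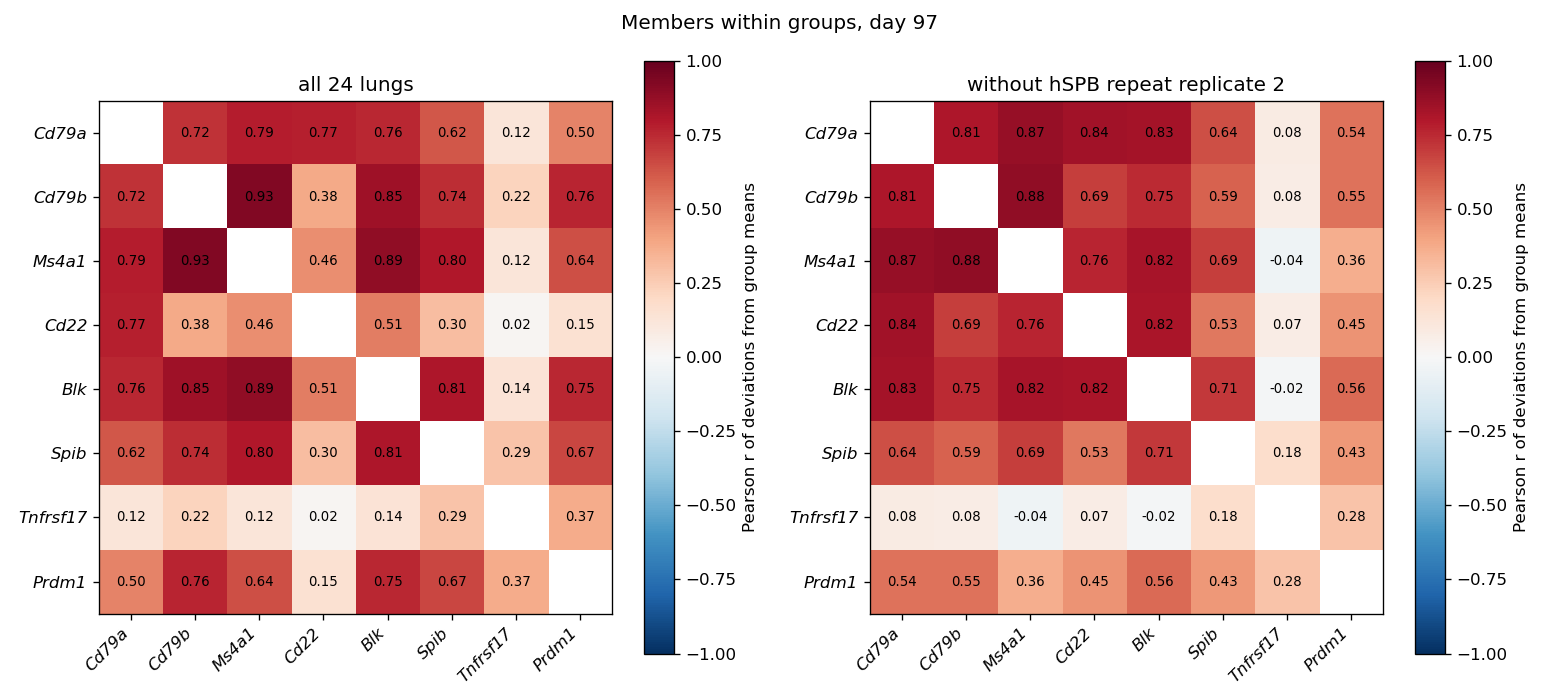
Pearson correlation (colour) of the 8 genes' deviations from their group means over the 24 day 97 lungs, with all lungs in the left panel and without AAV-hSPB repeat replicate 2 in the right. Tnfrsf17 has low values but was not above background in 14 of the 24 lungs, and Cd22 moves closer to Cd79b (0.38 to 0.69) when that lung is left out.

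Panel genes whose levels over the 24 lungs were most like the mean of Cd79a, Cd79b and Ms4a1 included H2-Ob (Pearson r = 0.93), Casp1 (0.92), Ltb (0.89) and Cxcr5 (0.89). Inside groups the same correlations were 0.85 for H2-Ob, 0.80 for Casp1, 0.84 for Ltb and 0.90 for Cxcr5. The genes most like Tnfrsf17 were Irf4 (0.89), Lax1 (0.88) and Ccr6 (0.87), which inside groups stood at 0.58, 0.55 and 0.66. Tnfrsf17 was not above background in 14 of the 24 lungs, so these values say little. Prdm1 was most like Ddx58 (0.88), H2-Ob (0.87) and Trim26 (0.86), with 0.87, 0.81 and 0.83 inside groups. These correlations describe lungs that share library and scaling.

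Of 26 listed genes of B cell receptor signalling 14 were measured, and against on-doxycycline 9 rose after repeat AAV-hSPB (median of the 14, 0.63, with 23.3% of all genes called higher) and 5 after repeat AAV-hSPBTLR9i (median 0.37, 11.0%). Without on-doxycycline replicate 1 and AAV-hSPB repeat replicate 2, these counts were 9 and 6 (22.3% and 13.2% of all genes), and Lax1 differed by 2.38 and 2.29. Lax1, a membrane adaptor of lymphocytes, rose by 1.94 ± 0.34 (adjusted p = 0.000389) and 2.29 ± 0.34 (0.000336). The kinase gene Syk rose by 0.75 ± 0.19 (0.00543) and 0.73 ± 0.19 (0.0120). Plcg2, the phospholipase downstream of Syk, rose by 0.58 and 0.63 (0.0282 and 0.0305), and Ptprc (CD45), a phosphatase of all white blood cells, by 0.73 and 0.49 (0.00134 and 0.0362). No gene of this list was called in a single-dose group of 4 lungs.

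Of 21 listed genes of the B cell follicle and germinal centre 18 were measured, and 7 rose after repeat AAV-hSPB (median 0.71, with 23.3% of all genes called higher) and 6 after repeat AAV-hSPBTLR9i (median 0.66, 11.0%). Without the same pair of lungs 10 and 7 were called (22.3% and 13.2%). Il21r, the receptor for the T cell cytokine IL-21, rose by 1.25 ± 0.21 (adjusted p = 0.00031) and 0.95 ± 0.21 (0.00522). Cd70, a ligand on activated lymphocytes, rose by 0.93 ± 0.24 (0.00671) and 1.30 ± 0.24 (0.000969). The chemokine receptor gene Ccr6 rose by 0.87 and 0.98 (0.00950 and 0.00775). Cxcl13, the chemokine that draws B cells into follicles, differed by 0.73 (adjusted p = 0.41) and 0.84 (0.44) and its receptor Cxcr5 by 0.68 (0.22) and 0.68 (0.32), so neither passed.

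Of 19 listed genes of plasma cell differentiation 10 were measured, which leave out the 8 genes described here. With repeat AAV-hSPB 3 of the 10 rose (median 0.18) and with repeat AAV-hSPBTLR9i 2 (median 0.39), against 23.3% and 11.0% of all genes, so the list as a whole was near the share of the panel. Without the same pair of lungs 2 of the 10 were called with each vector. Irf4, which B cells raise on the way to plasma cells and activated T cells express as well, rose by 2.41 ± 0.31 (adjusted p = 1.51e-05) and 2.54 ± 0.31 (6.88e-05). Xbp1, a factor of the secretory machinery, rose by 0.77 ± 0.16 (0.00134) and 0.74 ± 0.16 (0.00376). Il10 rose by 1.42 ± 0.52 with repeat AAV-hSPB (0.0478), a call lost without the pair of lungs (0.95, adjusted p = 0.184). Irf4 was then at 2.69 and 2.56. Irf4 was also higher in repeat than in single-dose lungs of each vector, by 1.47 ± 0.31 (0.00704) with AAV-hSPB and 1.78 ± 0.31 (0.0104) with AAV-hSPBTLR9i. Of 4 listed genes of the BAFF and APRIL system, whose products bind Tnfrsf17's protein, only Tnfsf13b (BAFF) was measured, at -0.21 (adjusted p = 0.536) and -0.01 (0.980). Of 13 listed B lineage transcription factor genes 4 were measured and Irf4 was the 1 that rose.

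Some markers of other cells also rose in repeat-dosed lungs. Over all genes 23.3% were called higher than on doxycycline with repeat AAV-hSPB and 11.0% with repeat AAV-hSPBTLR9i. Of 11 T cell markers 10 were measured. With repeat AAV-hSPB 5 were higher than on doxycycline (Cd6 by 0.98, Cd8a by 1.32, Cd4 by 0.76, Zap70 by 0.66 and Cd2 by 0.53), and with repeat AAV-hSPBTLR9i 2 (Cd6 by 0.91 and Cd4 by 0.82). Without on-doxycycline replicate 1 and AAV-hSPB repeat replicate 2 these counts were 10 of 10 and 2 of 10, beside 22.3% and 13.2% of all genes. Their summed log2 level was 10.57 to 11.15 on doxycycline, 10.96 to 11.80 after repeat AAV-hSPB and 11.16 to 11.65 after repeat AAV-hSPBTLR9i. Of 8 plasmacytoid dendritic cell markers 6 were measured, Spib among them, and the other 5 summed to 9.06 to 9.67 on doxycycline, 9.74 to 10.12 after repeat AAV-hSPB and 9.39 to 9.90 after repeat AAV-hSPBTLR9i. Ccr9 (0.57), Irf7 (0.72) and Tlr9 (0.94) of these 5 rose with repeat AAV-hSPB and none with repeat AAV-hSPBTLR9i, while Spib rose with both. Without that pair of lungs 5 of the 6 markers, Spib included, were called with repeat AAV-hSPB and 1 with repeat AAV-hSPBTLR9i. Of 6 macrophage markers 2 rose with repeat AAV-hSPB (Csf1r by 0.71 and Itgax by 0.60) and 1 with repeat AAV-hSPBTLR9i (Csf1r by 0.46), and none of the 4 natural killer cell or 2 neutrophil markers passed. The macrophage counts, like the 2 of 10 T cell markers with repeat AAV-hSPBTLR9i, were near the shares of all genes. Without the pair 1 macrophage marker was called with each vector, Itgax losing its call (adjusted p = 0.0984), and the natural killer cell marker Klrk1 was called with repeat AAV-hSPB (1.03, adjusted p = 0.0151). The part of these cells in the results for Spib, Prdm1 and the others was not tested.

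The 8 genes did not differ detectably by sex at day 97, where limma called 0 of the 8 and 21 of 773 genes. The lowest unadjusted p among the 8 was that of Cd79b, 0.51 higher in males (unadjusted p = 0.0145, adjusted p = 0.129).

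At 3 h no difference between vector and PBS lungs was detected for the 8 genes. Cd79a was at 7.85, 7.26 and 8.36 after PBS, 7.67, 7.38 and 6.72 after AAV-hSPB, and 7.75, 7.89 and 7.67 after AAV-hSPBTLR9i. Its AAV-hSPB minus PBS difference of -0.56 was the largest of the 8 in size (95% interval -1.28 to 0.15), and AAV-hSPBTLR9i minus AAV-hSPB was 0.51. Ms4a1 was at 6.86, 7.29 and 8.01 after PBS, 7.27, 7.84 and 7.51 after AAV-hSPB, and 7.85, 6.96 and 7.76 after AAV-hSPBTLR9i, with a difference of 0.16 between AAV-hSPB and PBS. Prdm1 was at 7.74, 6.87 and 7.28, then 7.61, 7.56 and 7.23, then 7.32, 7.48 and 7.40 in the same order. The PBS lungs spanned most of the range of the vector lungs for these genes. Tnfrsf17 had 16 to 29 counts per lung, with no background value used for this set.

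None of the 8 was called at 3 h in any of 3 comparisons, with adjusted p of 0.996 or more. By limma 0 of the 8 had an unadjusted p under 0.05 and voom called 0. Over the panel 0.0% of genes were called for AAV-hSPB against PBS, 0.0% for AAV-hSPBTLR9i against PBS and 0.0% for AAV-hSPBTLR9i against AAV-hSPB, with 17, 15 and 12 of 773 genes at an unadjusted p under 0.05. The differences of AAV-hSPBTLR9i from PBS ran from -0.12 to 0.14. Levels at 3 h and day 97 may have been normalized separately and are not set against each other.

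**Figure D5:**
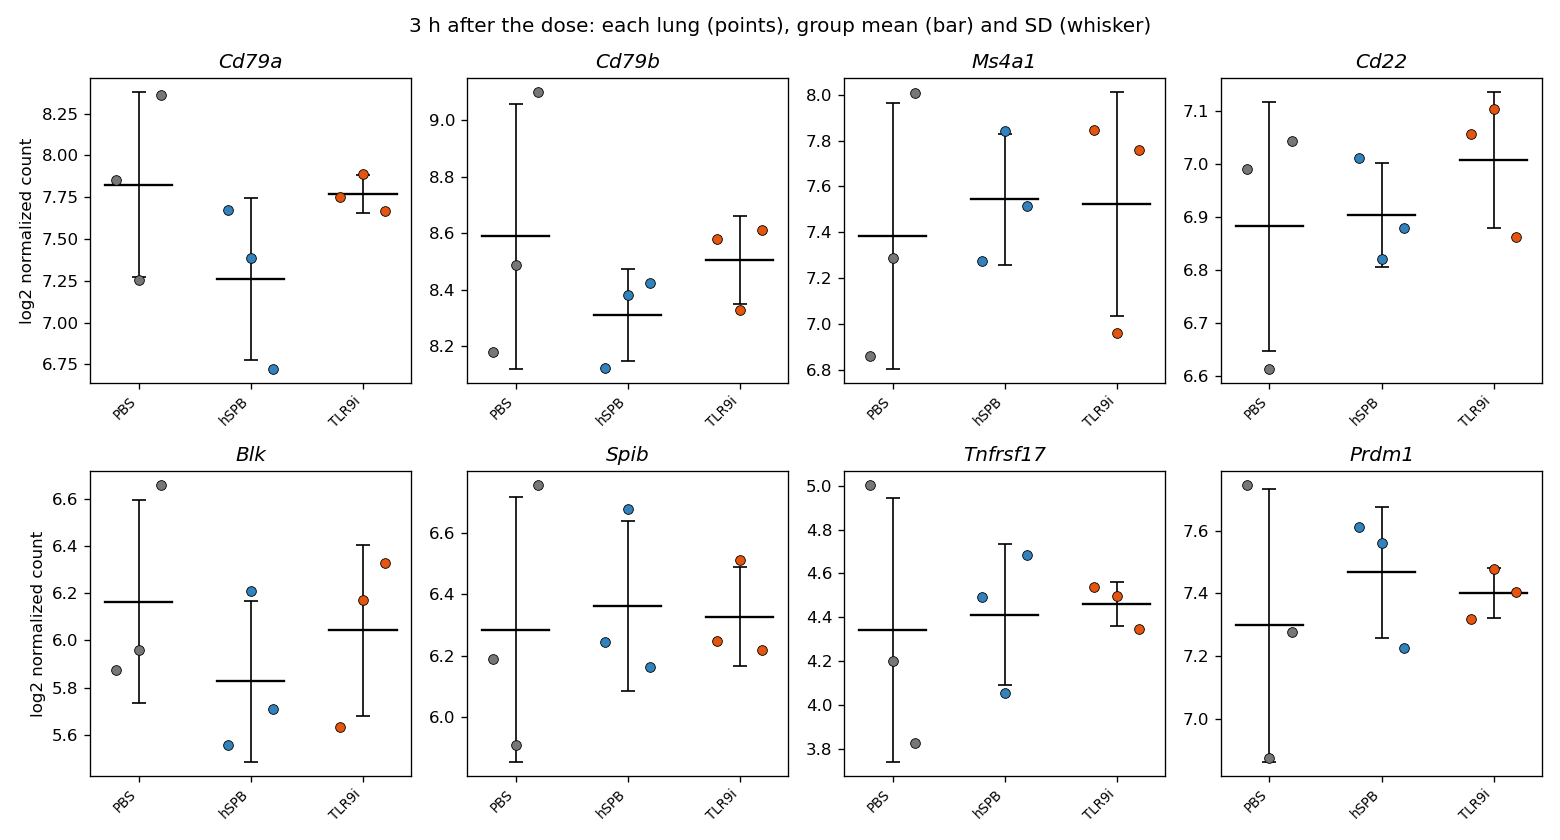
Log2 normalized count (y axis) of the 8 genes at 3 h in the PBS, AAV-hSPB and AAV-hSPBTLR9i groups (x axis), with 1 point per lung, a bar at the mean and a whisker of 1 SD (n = 3). The groups' points overlap in every panel, and the lowest Cd79a value, 6.72, is in the AAV-hSPB group.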

How the data were processed

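Total RNA from right lungs was counted on a 773-gene nCounter mouse panel with 12 reference genes, per the labels. The authors deposited log2 normalized counts, scaled to 6 reference genes at day 97, with linear copies in the same tables and a series matrix of normalized signal scaled to 12 reference genes. Whole counts were recovered from the deposited linear signal (100% whole). Groups came from the labels. The 8 genes and all gene lists were chosen with earlier results of these data known.

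Day 97 and 3 h lungs were fitted separately with limma 3.58.1 (R 4.3.3), all groups of a table in 1 fit, with 18 and 6 residual degrees of freedom, and p-values were adjusted by Benjamini-Hochberg over 773 genes (threshold 0.05). Genes named outside the 8 are called members of a list (up to 4 by p-value), the 5 (B cell mean) or 3 (Tnfrsf17, Prdm1) with the highest Pearson correlation, and others chosen after their values were seen. Values of 1 gene among these are not reported here. Each day 97 lung's background was taken 2 SD above the mean of the 8 control probes with the lowest counts. Correlations used 100000 permutations. Tests on simulated data recovered 77.0% of 1 log2 changes for repeat against single AAV-hSPB (773 genes) and 47.2% of the smallest changes set. The simulation changed a larger share of genes than was called in that comparison and gave each gene independent noise. Recovery in these data may therefore be lower. In the matrix, 9 columns were not used. Alternatives were other scalings, a filter on low genes, raising to background, voom, fits of the compared groups alone and leaving out lungs. The fit without on-doxycycline replicate 1 and AAV-hSPB repeat replicate 2 together was added after the data were seen. RefSeq gave the promoters.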

Additional observations from a re-analysis of the deposited data

Results flagged for a closer look

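Ms4a1 in AAV-hSPB repeat replicate 2, at a log2 level of 7.23, lay far below the other 3 lungs of its group, the nearest of which was at 9.07. It was picked out by Dixon's test for a sample apart from its group, the only 1 so found among 48 groups of 4 lungs tested for the 8 genes. That test picks out about 1 in 20 groups by chance.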

How the results depend on the processing

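No paired analysis was possible because the labels give the groups no shared replicate numbers. Numbers here count the genes called among the 8. Repeat AAV-hSPB against on-doxycycline went from 5 to 3 when the compared groups were fitted alone and to 8 without on-doxycycline replicate 1 and AAV-hSPB repeat replicate 2 together, and the same counts were 3 and 8 against off-doxycycline. Repeat AAV-hSPBTLR9i against off-doxycycline went from 8 to 4 with median-gene scaling and to 5 with 12 reference genes or the matrix. Repeat against single AAV-hSPBTLR9i went from 0 to 1 with values raised to background and to 2 with the groups alone. Pooled single-dose against no-vector lungs went from 4 to 0 with median-gene scaling, 12 reference genes or the matrix, to 1 with voom or the groups alone, and to 7 without both lungs. Pooled repeat against single went from 1 to 0 without the lowest 25% of genes, to 3 with voom or without both lungs, and to 2 with the groups alone. Pooled repeat against no-vector lungs stayed at 8.

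Leaving out 1 lung at a time gave 4 to 8 (repeat AAV-hSPB) and 5 to 7 (repeat AAV-hSPBTLR9i) against on-doxycycline, 4 to 8 and 3 to 7 against off-doxycycline, 0 to 1 for either single-dose group, 0 to 5 for pooled single-dose, 1 to 3 for pooled repeat against single, 8 to 8 for pooled repeat against no-vector lungs, and 0 to 0 elsewhere. Over all genes, repeat AAV-hSPB called 180 higher and 23 lower than on-doxycycline, against 84 in all with the groups alone, and 174 higher and 35 lower than off-doxycycline, against 70 in all. Repeat against single AAV-hSPBTLR9i called 3 genes, and 14 with the groups alone. Repeat AAV-hSPBTLR9i against off-doxycycline called 137 genes, down to 53 without AAV-hSPBTLR9i repeat replicate 2. The single-dose groups called 0 and 2 genes, and 11 each without on-doxycycline replicate 3. Pooled single-dose lungs called 21 genes, and 0 to 34 under the alternatives. Of 2680 values of single genes 128 lost and 44 gained their call, and 117 changed sign, none among called ones. The causes were not tested. Scaling to 12 reference genes, the matrix and the background were not run at 3 h. Dim signal limits Tnfrsf17.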
